A study of Mus musculus with 9 samples.

Results

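The genes of transforming growth factor beta (TGF-beta) and bone morphogenetic protein (BMP) signalling were examined in mammary tumours and normal mammary glands of mice. The 46 members were chosen by name as ligands, receptors, Smads, extracellular and membrane antagonists, latent TGF-beta binding proteins and target genes, out of 22180 genes with a probe set that carried a single gene symbol. Each of the 46 was measured by 1 such probe set, and all 46 passed the filter on low values, which asked for 3 or more arrays with a level over the 30th percentile of that array. The filter left 17478 genes for testing. Bmp5 passed it on 3 arrays and Bmpr1b on 4, while the other members lay above the percentile on all 9.

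RNA from frozen mammary tissue of 9 female FVB mice was measured on Affymetrix Mouse Gene 2.0 ST arrays, with 1 array per mouse and 3 mice per group. Metastatic and non-metastatic tumours came from Wnt1+/- mice of the MMTV-Wnt1 line, in which a mammary tumour virus promoter drives Wnt1, a secreted growth signal, in the mammary epithelium. Normal glands came from littermates labelled Wild-type Wnt1. All mice drank a sucrose solution with doxycycline, and a tetracycline-regulated transgene is not mentioned in the sources used here. Metastatic tumours were collected at 281 to 300 days of age, non-metastatic tumours at 222 to 354 days and normal glands at 533 to 556 days. Tumours appeared at 194 to 251 days in mice with metastasis and at 192 to 306 days in mice without it. Tumour, genotype and younger age cannot be told apart in the comparisons with normal gland. Levels are given on the log2 scale of the deposited table, so that a difference of 1 is a doubling. A level compares arrays for a single gene and does not rank genes against each other.

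TGF-beta, activin and BMP ligands are secreted dimers that bring type I and type II receptor kinases together at the cell surface. The type I receptor then phosphorylates receptor Smads, which join Smad4 and act on transcription in the nucleus. Smad2 and Smad3 carry the TGF-beta and activin signal, and Smad1, Smad5 and Smad9 carry the BMP signal. In the mammary gland TGF-beta restrains ductal growth, and in advanced tumours it is known to favour invasion, while BMP signals take part in the development of the gland and in exchange between epithelium and stroma.

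The ID proteins, helix-loop-helix factors without a DNA-binding domain that hold back differentiation, are the best known transcriptional targets of BMP signals. The promoters of Id3, Id2 and Id4 are printed because Id3 was called lower in tumours while Id2 and Id4 were not called, with Acvr1 and Tgfbr2 as receptors that were called in opposite directions. Each line holds the 250 bases before the start of the gene, 5′ to 3′ on the gene's own strand, from RefSeq on GRCm38.p6. Capitals mark GGCGCC, a BMP Smad motif that is its own reverse complement, and the short Smad box GTCT with its reverse complement AGAC. Matches of these motifs cannot share letters.
Id3 (chr4:136143572-136143821, plus strand): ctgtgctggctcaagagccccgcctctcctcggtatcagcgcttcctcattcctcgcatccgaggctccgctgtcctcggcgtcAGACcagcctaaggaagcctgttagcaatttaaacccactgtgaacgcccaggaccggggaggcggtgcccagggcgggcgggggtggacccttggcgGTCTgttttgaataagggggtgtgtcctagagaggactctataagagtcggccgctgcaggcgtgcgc
Id2 (chr12:25096093-25096342, minus strand): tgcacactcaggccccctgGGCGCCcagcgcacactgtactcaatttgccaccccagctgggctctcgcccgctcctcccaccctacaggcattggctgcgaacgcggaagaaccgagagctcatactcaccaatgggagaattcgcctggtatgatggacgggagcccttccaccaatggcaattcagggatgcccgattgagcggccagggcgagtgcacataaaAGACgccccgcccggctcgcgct
Id4 (chr13:48260866-48261115, plus strand): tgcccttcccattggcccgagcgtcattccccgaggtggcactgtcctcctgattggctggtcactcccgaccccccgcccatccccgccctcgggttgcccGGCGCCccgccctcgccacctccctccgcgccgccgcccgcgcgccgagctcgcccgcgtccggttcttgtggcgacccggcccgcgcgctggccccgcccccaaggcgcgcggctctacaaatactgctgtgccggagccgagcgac
Acvr1 (chr2:58566829-58567078, minus strand): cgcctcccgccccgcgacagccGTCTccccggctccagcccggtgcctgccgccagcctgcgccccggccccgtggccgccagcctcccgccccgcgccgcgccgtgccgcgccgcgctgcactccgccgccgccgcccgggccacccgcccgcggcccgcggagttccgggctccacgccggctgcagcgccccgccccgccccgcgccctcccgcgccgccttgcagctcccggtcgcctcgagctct
Tgfbr2 (chr9:116175364-116175613, minus strand): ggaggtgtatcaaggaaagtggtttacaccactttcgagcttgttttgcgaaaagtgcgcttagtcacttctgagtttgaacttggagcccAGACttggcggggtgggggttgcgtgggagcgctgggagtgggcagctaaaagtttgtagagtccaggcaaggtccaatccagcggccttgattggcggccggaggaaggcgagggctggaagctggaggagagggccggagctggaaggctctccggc

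Id3 held no GGCGCC and 2 short boxes, Id2 held 1 of each, and Id4 held 1 GGCGCC and no short box. Acvr1 and Tgfbr2 each held 1 short box. Promoters were found for 32 of the 46 members, 40 promoters in all since some genes have several. GGCGCC was in 11 of these 40 (27.5%), against 3149 of 32851 RefSeq promoters of the same length (9.59%). The short box was in 34 of 40 (85.0%), against 82.9% of all promoters. A match describes the letters of the window and does not show that a Smad binds there.

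Between tumours and normal gland, members were called among the ligands, receptors, antagonists and target genes. None of 8 Smads and none of 4 latent TGF-beta binding proteins was called. These lists are short, and a difference between roles was not tested. The BMP antagonist Chrdl1 and the ligand Bmp3 fell by over 3 on the log2 scale in tumours, Id3 fell, and the pseudoreceptor Bambi and the Smad co-repressor Skil rose. With the 6 tumours as a whole against normal gland, 13 of the 46 members were called (28.3%), 6 higher and 7 lower, at a limma adjusted p under 0.05. Among all genes tested 22.8% were called in either direction, 13.6% higher and 9.13% lower, so the share of members was near the background. The median change of the members was 0.17 and their median absolute change 0.63, against 0.04 and 0.26 over all genes. The 6 tumours and the 3 normal glands did not overlap for 13 members (28.3%), against 26% of all genes. Fewer members were called without normal gland 1 (5) and without normal gland 2 (7). Median centring of the arrays also gave 13 calls, 9 higher and 4 lower. They were not the same 13 members, since no called member changed direction.

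**Figure D1:**
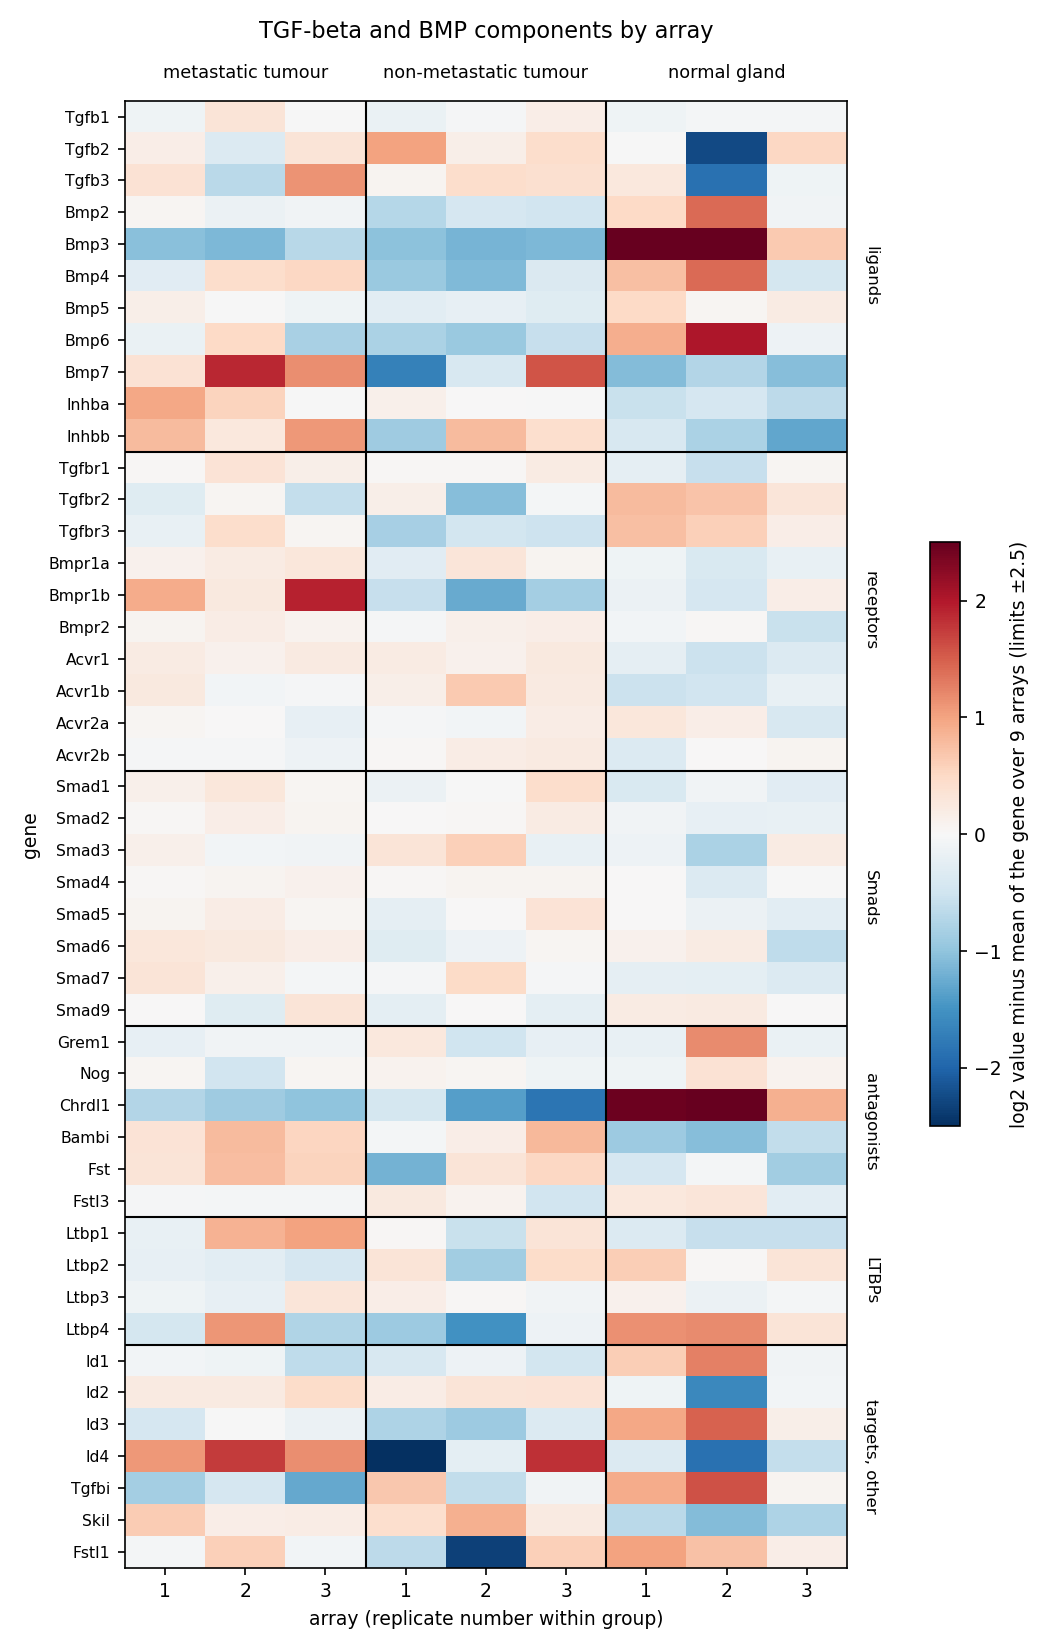
Log2 level of each of the 46 members on each of the 9 arrays, as the difference from the gene's mean over all arrays, with colours limited at 2.5 in either direction. Chrdl1 and Bmp3 stand out in the 3 normal glands, and Id4 and Bmp7 are low in non-metastatic tumour 1.

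Levels of cell type markers moved with these comparisons. Markers of white fat had a summed level of 62.5 to 66.4 in metastatic tumours, 60.1 to 73.9 in non-metastatic tumours, against 101.0 to 109.5 in normal glands, and all 9 measured markers were called lower in tumours. Fibroblast markers summed to 61.3 to 74.3 in metastatic tumours, 53.0 to 76.8 in non-metastatic tumours, against 84.3 to 85.3 in normal glands, with 2 of 8 called lower. Endothelial markers summed to 63.9 to 70.0, 59.9 to 68.0 and 72.3 to 74.5 in the same order of groups, with 3 of 8 called lower. Markers of luminal epithelium summed to 80.6 to 87.4 in metastatic tumours, 84.4 to 87.4 in non-metastatic tumours, against 69.2 to 82.4 in normal glands. Of these, 4 of 8 were called higher. Of 6 measured cell division markers all were called higher in tumours. Of 6 mast cell markers 5 were called lower and 1 higher, and of 7 macrophage and 4 T cell markers 1 each was called lower. No skeletal muscle, differentiated epidermis, basal or milk protein marker was called. None of these markers was at 0 on any array. In bulk tissue, fewer cells of a type and less RNA per cell cannot be told apart, and the part of cell makeup in the results below was not tested.

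Normal gland 2 stood apart. Its skeletal muscle markers had a mean level of 9.79, against 6.10 and 6.39 in normal glands 1 and 3, its differentiated epidermis markers 10.17 against 5.61 and 5.67, its luminal markers 8.65 against 10.05 and 10.30, and its milk protein markers 7.67 against 12.23 and 12.39. Milk protein markers were also low in metastatic tumour 2, at 7.81, against 12.52 and 10.78 in metastatic tumours 1 and 3. Normal gland 3 had the lowest fat level, 11.22, against 11.96 and 12.17 in normal glands 1 and 2. Changes without normal gland 2 are given below for the genes that carried the comparison.

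Among the 11 ligands, 2 rose and 2 fell in tumours (36.4% called, against 22.8% of all genes). Bmp3, a ligand known to oppose other BMPs in bone, had levels of 5.77, 5.68 and 6.11 in metastatic tumours, 5.79, 5.65 and 5.68 in non-metastatic tumours, against 9.64, 9.49 and 7.46 in normal glands. All 6 tumours lay below all 3 normal glands, and normal gland 3 was the lowest of the glands. The change was -3.08 (SE 0.44, limma adjusted p = 0.00424), 8.48 times lower in tumours, and it was -2.77 without normal gland 2. Fat, fibroblast, endothelial and macrophage markers moved in the same direction, and each set was lowest among glands in normal gland 3. Fat markers were highest in normal gland 2, and Bmp3 in normal gland 1. The part of these markers' cells in the change of Bmp3 was not tested.

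Inhba, which encodes the activin A subunit, had levels of 6.94, 6.53 and 5.97 in metastatic tumours, 6.10, 5.98 and 5.96 in non-metastatic tumours, against 5.42, 5.55 and 5.32 in normal glands. Every tumour was above every gland, and metastatic tumours 1 and 2 were the highest. It rose by 0.82 (SE 0.19, limma adjusted p = 0.0193). The call was lost when any 1 normal gland was left out, with adjusted p of 0.0674, 0.053 and 0.0527 for glands 1, 2 and 3. Its relative Inhbb, the activin B subunit, had levels of 9.72, 9.18 and 10.01 in metastatic tumours, 8.04, 9.71 and 9.35 in non-metastatic tumours, against 8.52, 8.13 and 7.63 in normal glands. Non-metastatic tumour 1 lay within the range of the glands. Inhbb changed by 1.24 (SE 0.38) with a limma adjusted p that rounds to 0.05, and the call was lost in 8 of the 9 fits that left out 1 array, all but the one without non-metastatic tumour 1.

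Bmp5 had the smallest called change, -0.37 (SE 0.11, limma adjusted p = 0.0498), and was above the 30th percentile of the array on 1 metastatic tumour, no non-metastatic tumour and 2 normal glands. This call was also lost in 8 of 9 fits, all but the one without normal gland 2. The remaining 7 ligands were not called. Bmp6 (-1.40, limma adjusted p = 0.0574) and Bmp2 (-0.91, 0.0526) were next to the threshold with negative changes. Bmp4 had -0.87 (0.149) and Bmp7 1.44 (0.142), neither of them called. Without normal gland 2 the changes were -0.86 for Bmp6, -0.50 for Bmp2 and -0.45 for Bmp4. Tgfb1, the ligand best known for restraining growth of mammary epithelium, had a change of 0.10 with a 95% interval from -0.17 to 0.37, so a doubling or a halving was outside the interval.

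Normal gland 2 was low for Tgfb2 and Tgfb3, the other TGF-beta ligands. Tgfb2 had levels of 9.38, 8.87 and 9.54 in metastatic tumours, 10.23, 9.37 and 9.65 in non-metastatic tumours, against 9.20, 6.96 and 9.73 in normal glands. Its change was 0.88 (SE 0.55, limma adjusted p = 0.292) and Tgfb3 had 0.86 (SE 0.52, 0.269). Without normal gland 2 these changes were 0.04 and 0.21.

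**Figure D2:**
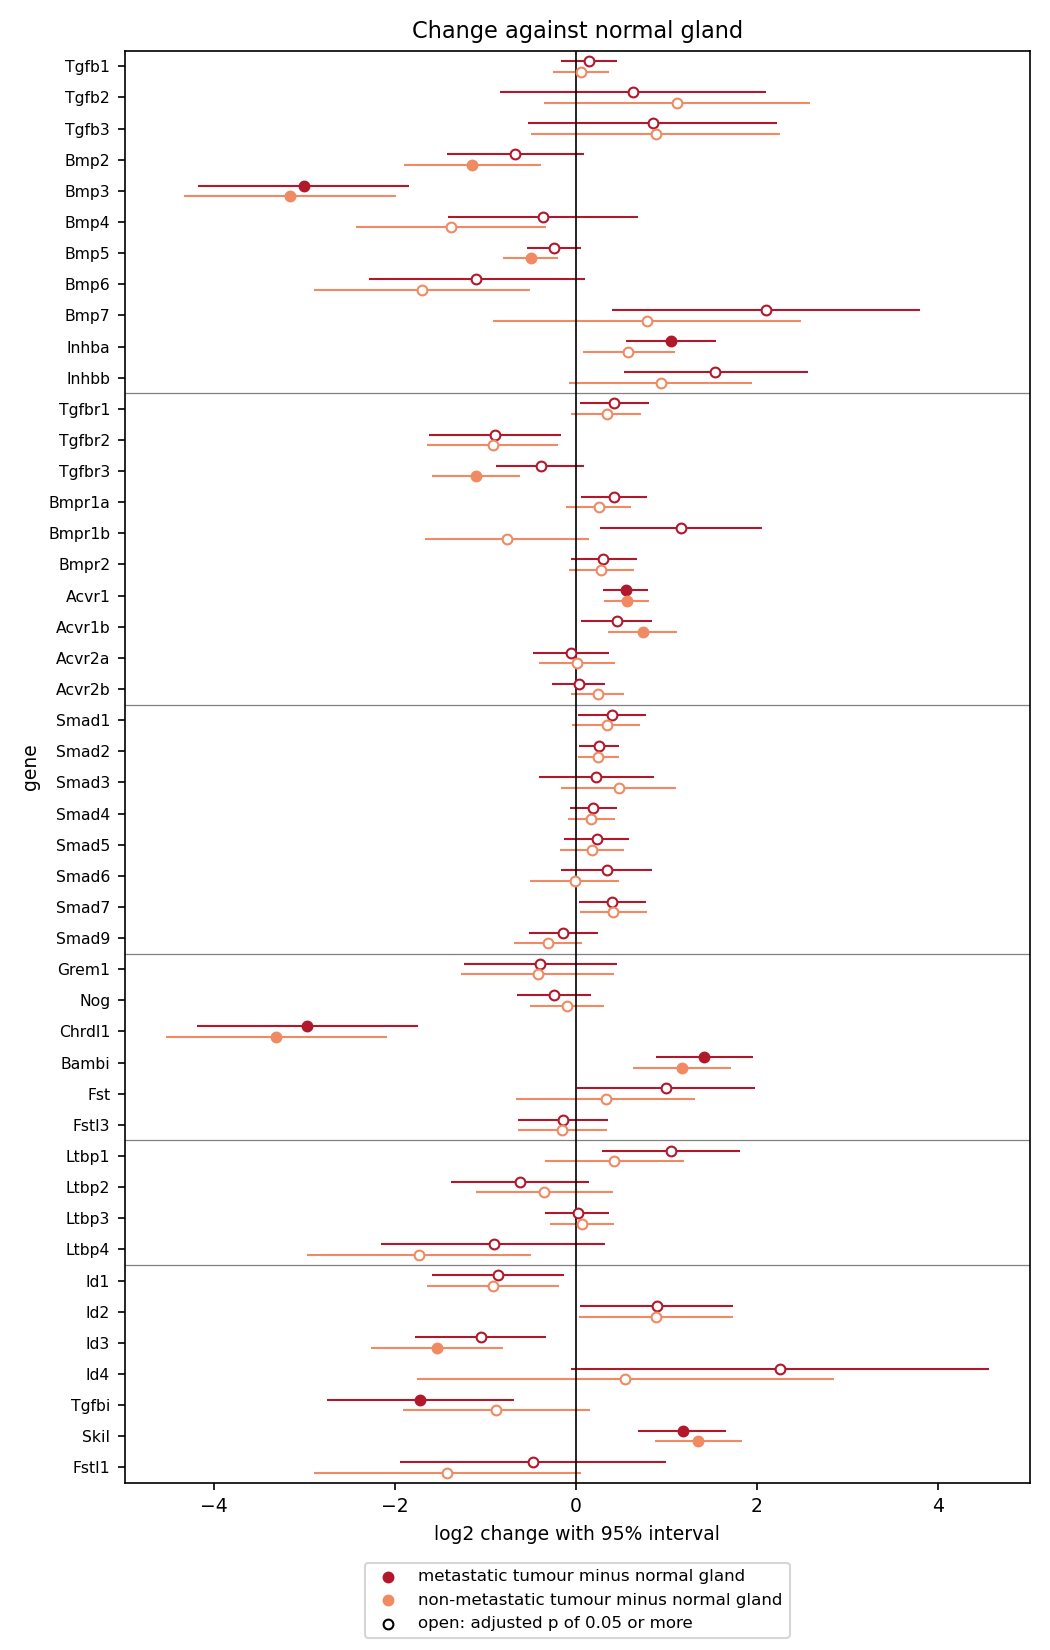
Log2 change of each member in metastatic and in non-metastatic tumours against normal gland, with 95% intervals. Filled points have a limma adjusted p under 0.05, and the intervals of the 2 tumour groups overlap widely for most members.

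Of the 10 receptors, 2 rose and 2 fell (40% called, against 22.8% of all genes). Acvr1, the type I receptor also called ALK2, had levels of 8.21, 8.11 and 8.22 in metastatic tumours, 8.20, 8.11 and 8.25 in non-metastatic tumours, against 7.78, 7.46 and 7.66 in normal glands. The tumours lay within a narrow band above all glands. Its rise was 0.55 (SE 0.09, limma adjusted p = 0.00701), and 0.47 without normal gland 2. Acvr1b, the type I activin receptor ALK4, had levels of 9.01, 8.71 and 8.75 in metastatic tumours, 8.92, 9.42 and 8.99 in non-metastatic tumours, against 8.24, 8.30 and 8.59 in normal glands, again without overlap. It rose by 0.59 (SE 0.15, limma adjusted p = 0.0233), a call lost without normal gland 1 (0.0931), normal gland 2 (0.0869) or metastatic tumour 1 (0.05 after rounding).

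Tgfbr2, the type II receptor that binds TGF-beta, had levels of 9.17, 9.52 and 8.89 in metastatic tumours, 9.62, 8.42 and 9.43 in non-metastatic tumours, against 10.26, 10.20 and 9.79 in normal glands. All tumours lay below all glands, with non-metastatic tumour 2 lowest. It fell by 0.91 (limma adjusted p = 0.0475), and the call was lost in 7 of 9 fits that left out 1 array, with adjusted p up to 0.15. Non-metastatic tumour 2 also had the lowest fibroblast level, 6.62, against 7.66 to 9.60 in the other tumours. It was likewise the lowest tumour for fat (6.68), endothelial (7.48) and macrophage (8.95) markers. The part of any of these in the level of Tgfbr2 was not tested.

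Tgfbr3, betaglycan, the co-receptor that presents TGF-beta2 to the type II receptor, had levels of 9.47, 10.10 and 9.71 in metastatic tumours, 8.82, 9.19 and 9.14 in non-metastatic tumours, against 10.40, 10.24 and 9.81 in normal glands. Metastatic tumour 2 overlapped the glands, and all non-metastatic tumours lay below them. It fell by 0.75 in both tumour groups together (limma adjusted p = 0.0224), a call lost without normal gland 1 (0.0919) or normal gland 2 (0.085). Bmpr1a, Bmpr2, Tgfbr1, Acvr2a, Acvr2b and Bmpr1b were not called, with changes from -0.02 to 0.38.

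None of the 8 Smads was called, against 22.8% of all genes. Their changes lay between -0.22 for Smad9 and 0.40 for Smad7, 7 of them positive, with a median of 0.23 against 0.04 over all genes. Tumours and glands did not overlap for Smad2, Smad4 and Smad7 (37.5%, against 26% of all genes). Smad2 had 9.15, 9.28 and 9.20 in metastatic tumours, 9.13, 9.15 and 9.32 in non-metastatic tumours, against 9.03, 8.91 and 8.93 in normal glands, a change of 0.25 (95% interval 0.06 to 0.44, limma adjusted p = 0.0646). Smad7, the inhibitory Smad that TGF-beta induces, had a change of 0.40 (95% interval 0.09 to 0.72, limma adjusted p = 0.0701).

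The 6 antagonists held the member with the largest change, and 1 rose and 1 fell (33.3% called, against 22.8% of all genes). Chrdl1, a secreted protein that binds BMPs, had levels of 6.01, 5.84 and 5.73 in metastatic tumours, 6.29, 5.36 and 4.90 in non-metastatic tumours, against 9.18, 9.68 and 7.62 in normal glands. Every tumour was below every gland, and normal gland 3 was the lowest gland, as for Bmp3. It fell by 3.14 (SE 0.46, limma adjusted p = 0.00456), to a level 8.8 times lower, and the change was -2.71 without normal gland 2. Fat, fibroblast and endothelial markers were lower in the same tumours, and their part in the change was not tested.

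Bambi, a membrane protein that resembles a type I receptor but lacks the kinase, had levels of 8.87, 9.33 and 9.08 in metastatic tumours, 8.48, 8.71 and 9.34 in non-metastatic tumours, against 7.63, 7.47 and 7.93 in normal glands. Each tumour exceeded each gland. The rise was 1.29 (SE 0.20, limma adjusted p = 0.00575), 2.45-fold, and 1.19 without normal gland 2. Grem1, Nog, Fst and Fstl3, which trap BMPs or activins, were not called, with changes between -0.41 and 0.66. Fst, follistatin, had 9.07, 9.52 and 9.30 in metastatic tumours, 7.56, 9.06 and 9.25 in non-metastatic tumours, against 8.32, 8.70 and 7.88 in normal glands, where non-metastatic tumour 1 lay below every gland and the other tumours above.

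**Figure D3:**
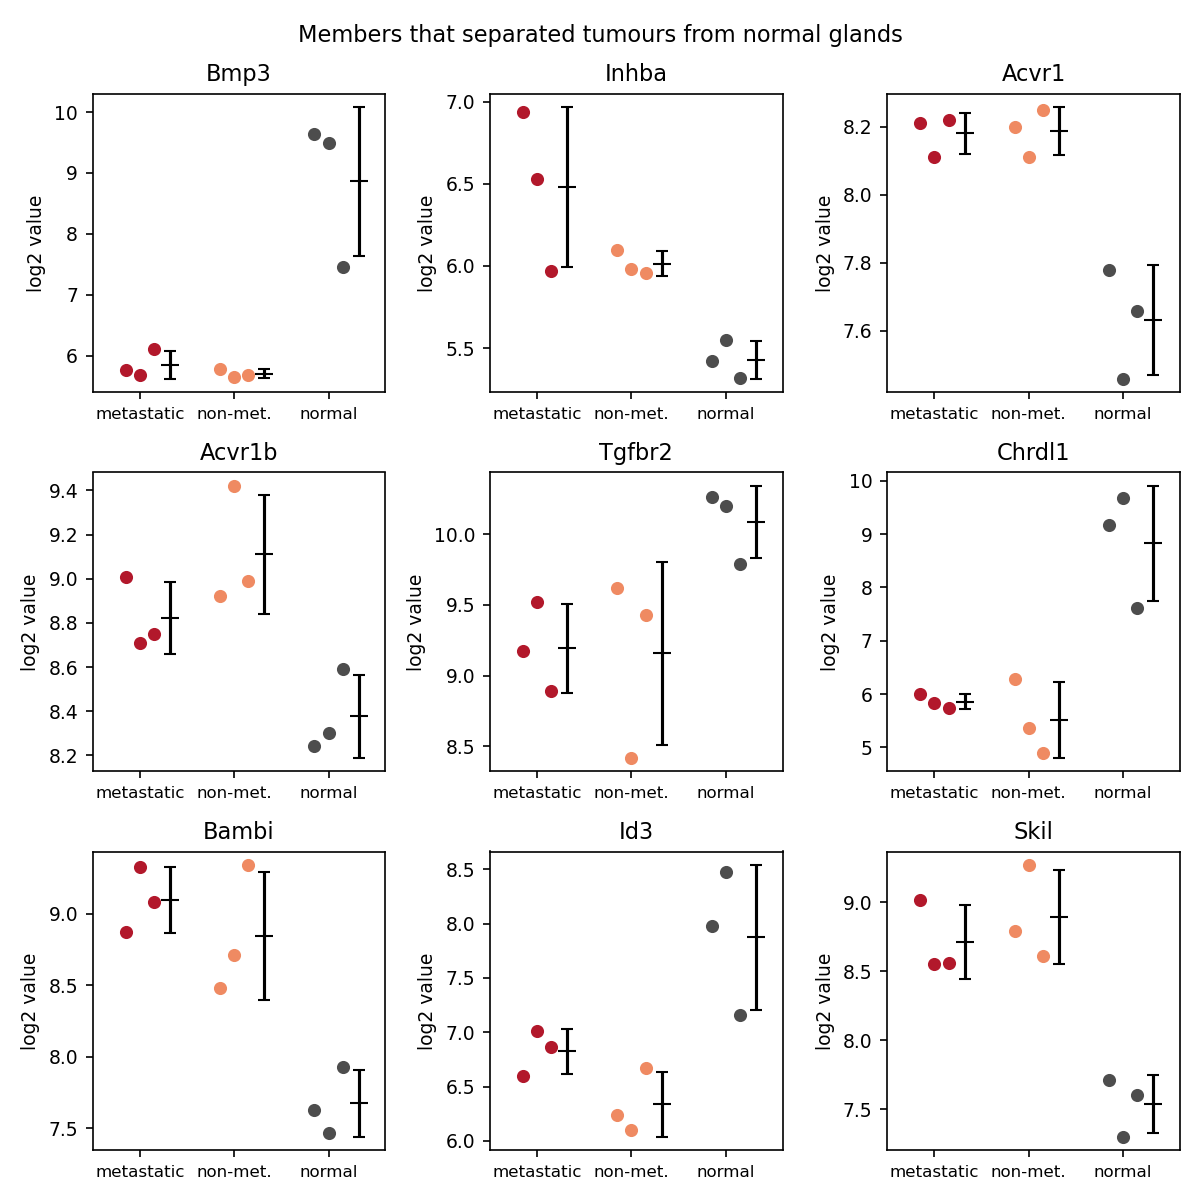
Log2 level on each array for the members called between tumours and normal gland without overlap, with the mean and SD of each group (n = 3). The tumours of both groups lie on 1 side of the 3 normal glands in every panel.

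None of the 4 latent TGF-beta binding proteins, which store the ligand in the matrix, was called, against 22.8% of all genes. Ltbp1 had a change of 0.74 (SE 0.29, limma adjusted p = 0.102) and Ltbp4 of -1.32 (SE 0.46, 0.0748), with Ltbp2 at -0.49 and Ltbp3 at 0.04. Ltbp4 had 8.21, 9.76 and 7.90 in metastatic tumours, 7.74, 7.13 and 8.53 in non-metastatic tumours, against 9.79, 9.84 and 8.98 in normal glands. Metastatic tumour 2 was the tumour that reached the glands, and its endothelial level, 8.74, was the highest of the tumours. Fibroblast and macrophage markers were highest among tumours in non-metastatic tumour 3, where Ltbp4 lay below every gland. The part of any of these cells in the level of Ltbp4 was not tested.

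Among the 7 targets and other members, Skil rose and Id3 and Tgfbi fell (42.9% called, against 22.8% of all genes). Skil, also called SnoN, a co-repressor of Smads that TGF-beta induces, had levels of 9.02, 8.55 and 8.56 in metastatic tumours, 8.79, 9.27 and 8.61 in non-metastatic tumours, against 7.71, 7.30 and 7.60 in normal glands. The tumours were all above the glands, by 1.27 on average (SE 0.18, limma adjusted p = 0.00434), or 1.15 without normal gland 2. Tgfbi, a matrix protein named for its induction by TGF-beta, had levels of 9.08, 9.52 and 8.65 in metastatic tumours, 10.61, 9.32 and 9.84 in non-metastatic tumours, against 10.86, 11.53 and 10.01 in normal glands, with non-metastatic tumour 1 above the lowest gland. It fell by 1.30 (SE 0.39, limma adjusted p = 0.0456), and the call was lost in 7 of 9 fits that left out 1 array, with adjusted p up to 0.17. Fstl1, a secreted glycoprotein related to follistatin, was not called, with a change of -0.95 (SE 0.56, limma adjusted p = 0.258).

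Of the 4 ID genes, 3 of which have their promoters printed above, Id3 alone was called. Id3 had levels of 6.60, 7.01 and 6.86 in metastatic tumours, 6.24, 6.10 and 6.67 in non-metastatic tumours, against 7.98, 8.48 and 7.16 in normal glands. It fell by 1.30 in tumours (SE 0.27, limma adjusted p = 0.0144) without overlap, and the call was lost without normal gland 1 (0.0578). Id1 had 7.28, 7.26 and 6.73 in metastatic tumours, 6.96, 7.24 and 6.90 in non-metastatic tumours, against 7.97, 8.61 and 7.27 in normal glands, where metastatic tumour 1 and normal gland 3 were level, with a change of -0.89 (limma adjusted p = 0.0506), and -0.56 without normal gland 2.

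Id2 was not called, with a change of 0.89 (SE 0.32, limma adjusted p = 0.0816), and 0.38 without normal gland 2. It had levels of 11.09, 11.09 and 11.31 in metastatic tumours, 11.05, 11.19 and 11.20 in non-metastatic tumours, against 10.76, 9.25 and 10.79 in normal glands, all tumours above all glands, with gland 2 far below the rest. Id4, which mammary basal cells express, had 10.73, 11.40 and 10.81 in metastatic tumours, 6.89, 9.41 and 11.48 in non-metastatic tumours, against 9.32, 7.78 and 9.06 in normal glands. Id4 was not called (1.40, limma adjusted p = 0.283), and its change was 0.93 without normal gland 2. Its SD among non-metastatic tumours was 2.30, the largest of any member in any group, and Bmp7 was next at 1.65. Bmp7 had 7.39, 8.67 and 10.65 in these tumours, in the same order of arrays as Id4. The mean level of basal and myoepithelial markers was 7.52, 8.49 and 9.39 in the same 3 tumours. It was 9.84 to 9.90 in metastatic tumours, against 9.23, 9.50 and 9.42 in normal glands 1, 2 and 3. Cell division markers had the same order in the 3 non-metastatic tumours (8.90, 9.09 and 9.43), and milk protein and T cell markers the reverse order. Among the glands, gland 2 had the highest basal level, the highest Bmp7 and the lowest Id4. The order over the 3 non-metastatic tumours is a description, and the part of any of these cells in it was not tested.

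**Figure D4:**
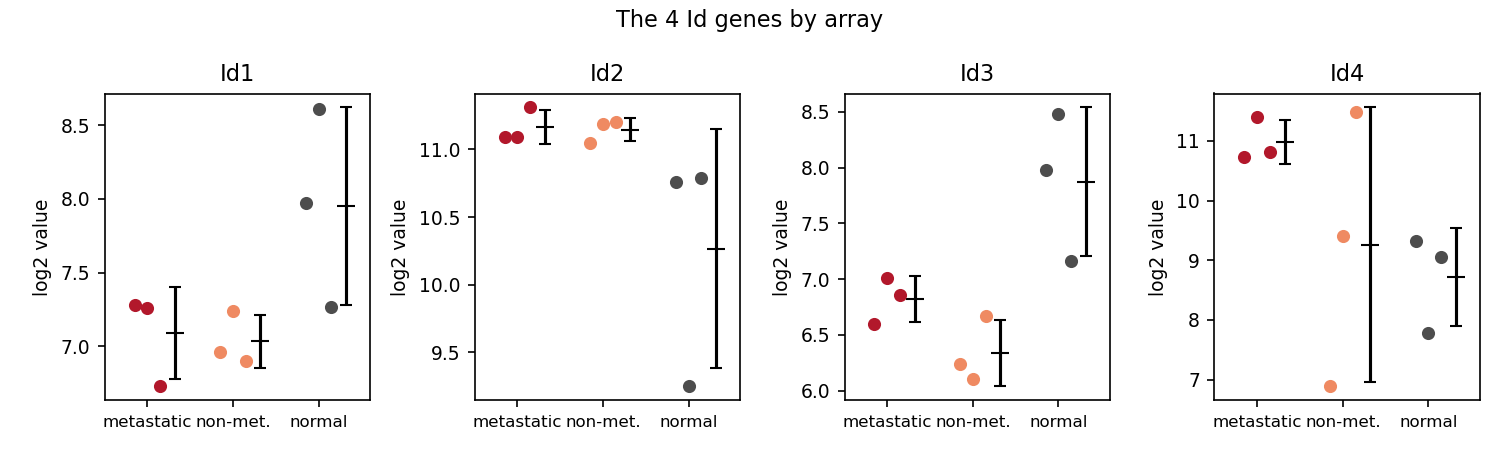
Log2 level of Id1, Id2, Id3 and Id4 on each array, with group mean and SD (n = 3). Id3 is lower in tumours, Id2 is low in normal gland 2, and Id4 spans 6.89 to 11.48 among non-metastatic tumours.

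The 2 tumour groups were also set against normal gland separately; these comparisons share the 3 normal glands. In metastatic tumours 7 members were called (15.2%), 4 higher and 3 lower, against 13.3% of all genes, 7.35% higher and 6% lower. Inhba, Acvr1, Bambi and Skil rose, and Bmp3, Chrdl1 and Tgfbi fell. In non-metastatic tumours 10 members were called (21.7%), 4 higher and 6 lower, against 18.8% of all genes, 11.2% higher and 7.6% lower. Acvr1, Acvr1b, Bambi and Skil rose, and Bmp2, Bmp3, Bmp5, Tgfbr3, Chrdl1 and Id3 fell. Both shares were near the background. In metastatic tumours the count was 3 without metastatic tumour 1, 4 without metastatic tumour 3, 4 when normal gland 1 or normal gland 2 was left out, and 12 without normal gland 3. In non-metastatic tumours it was 6 without non-metastatic tumour 2, and 5 without normal gland 1.

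Changes in the 2 groups lay side by side for the members called in both. Chrdl1 fell by 2.97 (SE 0.53) in metastatic tumours and fell by 3.31 (SE 0.53) in non-metastatic tumours. Bmp3 fell by 3.01 in metastatic and fell by 3.16 in non-metastatic tumours (SE 0.51 each). Bambi rose by 1.42 and 1.17, Skil by 1.18 and 1.35, and Acvr1 by 0.55 and 0.56, with limma adjusted p between 0.00822 and 0.0195 in these 5 members. In metastatic tumours the calls of Bmp3 and Bambi held with every array left out, and that of Skil was lost without metastatic tumour 1 (0.0521). That of Chrdl1 was lost without normal gland 1 (0.0548), metastatic tumour 1 (0.0503) or metastatic tumour 3 (0.0548). Inhba was lost without normal gland 1 or 2 or metastatic tumour 1 or 2, Acvr1 without normal gland 2 or metastatic tumour 1 or 3, and Tgfbi in 6 of 9 fits. In non-metastatic tumours Bmp3, Tgfbr3, Acvr1, Chrdl1 and Skil held with every array left out. There Bambi was lost without normal gland 1 (0.0543) or 2 (0.0526), Id3 without normal gland 1 (0.0569) or non-metastatic tumour 2 (0.0565), Acvr1b without normal gland 1 or 2 or non-metastatic tumour 2, Bmp5 in 6 fits and Bmp2 in 8. A call in a single group does not show that the groups differ, which the comparison of the tumours tests directly.

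Metastatic and non-metastatic tumours differed in no member at the adjusted threshold. Of 46 members 0 were called by limma, against 0.00572% of all genes, which is 1 gene. An unadjusted p under 0.05 was found for 2 members (4.35%), against 886 of all genes (5.07%). The median change was 0.07 and the median absolute change 0.23, against -0.02 and 0.13 over all genes. The changes were positive in 33 members and negative in 13, against 7980 positive and 9492 negative over all genes. The arrays of the groups did not overlap for 7 members (15.2%), against 10.3% of all genes.

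Bmpr1b, the type I BMP receptor ALK6, had the lowest p. Its levels were 5.79, 5.09 and 6.77 in metastatic tumours and 4.27, 3.60 and 4.01 in non-metastatic tumours, with 4.71, 4.44 and 5.02 in normal glands. All metastatic tumours were above, and all non-metastatic tumours below, every normal gland. Non-metastatic tumours lay below the arrays' 30th percentile, which was 4.83 to 4.95, as did 2 of the glands, so their level was near background, and the gene met the filter through its metastatic arrays. The difference in deposited values was 1.93 (SE 0.39, 95% interval 1.02 to 2.83), with a limma adjusted p of 0.849. With the lower side near background, neither this difference nor its interval is a measured fold of the transcript. Against normal gland Bmpr1b was called in neither metastatic (1.16, limma adjusted p = 0.088) nor non-metastatic tumours (-0.76, 0.21).

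Tgfbr3 was next, with 9.47, 10.10 and 9.71 in metastatic tumours and 8.82, 9.19 and 9.14 in non-metastatic tumours, without overlap. The difference was 0.71 (95% interval 0.23 to 1.19, limma adjusted p = 0.882). Bmp4, a ligand of mammary stroma, had levels of 6.30, 7.02 and 7.10 in metastatic tumours, 5.65, 5.48 and 6.23 in non-metastatic tumours, against 7.34, 8.01 and 6.15 in normal glands. All metastatic tumours exceeded all non-metastatic ones, by 1.02 on average (95% interval -0.02 to 2.07, limma adjusted p = 0.882). Between the same groups the fibroblast and endothelial markers were higher in metastatic tumours for 8 of 8 each, with median differences of 0.32 and 0.36. Of either set 0 had an unadjusted limma p under 0.05. By array, the fibroblast level was lowest in non-metastatic tumour 2 (6.62), which also had the lowest Bmp4. It was highest in non-metastatic tumour 3 (9.60), where Bmp4 was 6.23, and was 7.66 in metastatic tumour 3, where Bmp4 was 7.10. Basal markers were higher for 7 of 7 (median 1.03, 3 with an unadjusted p under 0.05), and milk protein markers were lower for 6 of 6 (median -1.13). Skeletal muscle markers were lower for 10 of 10 (median -0.97) and cell division markers for 6 of 6 (median -0.23). Their part in the differences of the members was not tested. Inhba differed by 0.47 (95% interval -0.03 to 0.97), with metastatic tumour 3 among the non-metastatic values. Bmp5 differed by 0.26 (95% interval -0.04 to 0.57), with 4.95, 4.78 and 4.69 in metastatic tumours, 4.53, 4.59 and 4.50 in non-metastatic tumours, against 5.29, 4.85 and 5.00 in normal glands, values close to the 30th percentile.

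**Figure D5:**
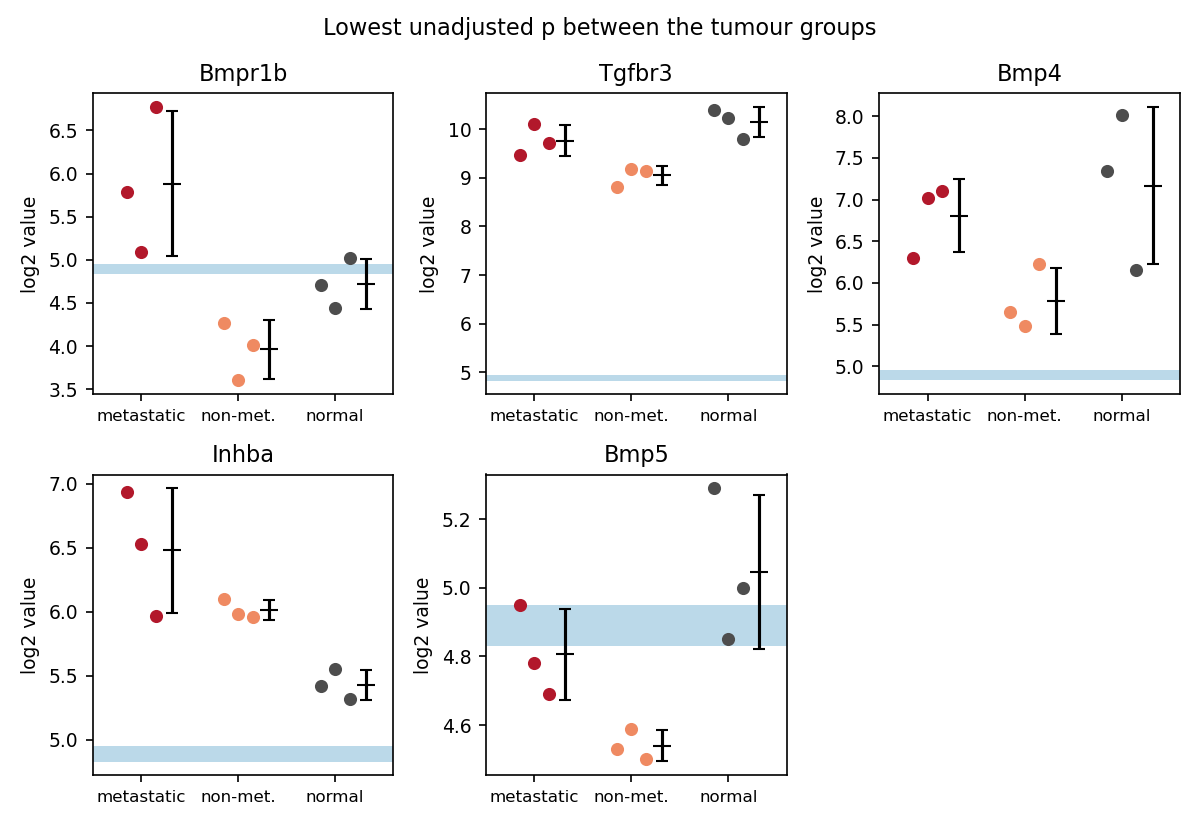
Log2 level on each array of the 5 members with the lowest p between metastatic and non-metastatic tumours, with group mean and SD (n = 3). The blue band is the range of the arrays' 30th percentile, 4.83 to 4.95, below which all non-metastatic tumours lie for Bmpr1b.

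The precision of these differences varied widely over members. For Acvr1 the interval ran from -0.26 to 0.24, for Smad2 from -0.21 to 0.23 and for Smad4 from -0.24 to 0.27, so larger differences between the tumour groups were outside it. For Bmp7 it ran from -0.39 to 3.02 and for Id4 from -0.59 to 4.02, so a difference of several fold could not be told from none. The median SD of the members within a group was 0.22 in metastatic tumours, 0.29 in non-metastatic tumours, against 0.31 in normal glands. Over all genes it was 0.14, 0.19 and 0.19 in the same order. It exceeded 1 for 0, 3 and 5 members in the same order of groups. Of the 46 members, normal gland 3 was the lowest of the glands for 23, gland 2 for 16 and gland 1 for 7.

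Beyond the members, 97 further genes of the pathway were listed, of which 85 were tested. In tumours against normal gland 19 were called (22.4%), 11 higher and 8 lower, against 22.8% of all genes. The largest was Acvr1c, the type I receptor ALK7, known in mice from fat, at 5.23 ± 0.25 in tumours and 8.26 ± 1.06 in normal glands (SD, n = 6 and n = 3). It fell by 3.03 (SE 0.40, limma adjusted p = 0.00335). Gdf10, a ligand close to Bmp3, fell by 1.98 (SE 0.37, limma adjusted p = 0.00961), Bmp8a fell by 0.50 and Bmp15, known from the oocyte, rose by 1.16. Of the other receptors and co-receptors, 2 of 8 were called (25%, against 22.8% of all genes). Both were lower, Acvr1c and the BMP co-receptor Rgmb, which fell by 0.54.

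Among the other extracellular regulators, 1 of 15 rose and 2 fell (20% called, against 22.8% of all genes). Fstl4, a follistatin-like gene, rose by 2.12, the BMP-binding protein Bmper fell by 1.28 (SE 0.23, limma adjusted p = 0.0085) and the matrix proteoglycan Dcn, which binds TGF-beta, fell by 1.64. Of 12 genes that release or hold latent TGF-beta, the integrin subunits Itgb8 and Itgav rose by 1.23 and 0.75 (limma adjusted p = 0.0286 and 0.0398). Nrros, which holds latent TGF-beta on myeloid cells, fell by 0.56 (limma adjusted p = 0.022). Of 18 intracellular modulators, 5 rose and 0 fell, against 13.6% and 9.13% of all genes. The largest changes there were in Trim33, a ubiquitin ligase that acts on Smad4, with 0.99, the co-repressor Tgif1 with 0.96 (limma adjusted p = 0.00866) and Tab1, a partner of the kinase TAK1, with 0.60. Of 13 other targets, the matrix gene Fn1 fell by 1.88 and Ccn2, connective tissue growth factor, rose by 1.19. Between metastatic and non-metastatic tumours limma called 0 of these 85, and 3 had an unadjusted p under 0.05 (3.53%), against 5.07% of all genes.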

How the data were processed

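RNA from 9 mouse mammary samples was measured on Affymetrix Mouse Gene 2.0 ST arrays. The deposited table holds log2 values of 41345 probe sets, made by the authors with RMA, per the submitters' processing notes; the RMA version, probe set level and build are not given in the sources used here. Probe sets were named through the platform annotation: 23521 had 1 gene symbol, 1814 several, and 16010 were not listed. The highest-mean probe set stood for a gene.

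Groups came from the titles. limma 3.58.1 (R 4.3.3, lmFit and eBayes, 1 mean per group, 9 arrays, 6 residual degrees of freedom) was fitted to all 17478 genes, and p-values were adjusted by Benjamini-Hochberg over all of them, two-sided, with a threshold of 0.05. The fit was tested on simulated data. The number of arrays limits the precision.

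The members, marker and pathway lists were chosen with earlier results of these data known. Array values were named for the 5 members with the lowest p between tumour groups, for members called in tumours against normal gland without overlap, largest change first and at most 12, and for members called in a single tumour group whose p between the tumour groups was under 0.05. Of each further pathway list the 3 called genes with the largest change were named. The values of Tgfb2, Inhbb, Tgfbi, Smad2, Fst, Ltbp4, Id1, Id2, Id4 and Bmp7 were singled out after they had been seen. Replicate numbers name different mice and were not taken as pairs. Deviations of same-numbered arrays from their group means correlated from -0.28 to 0.17 over 9 pairs, 2 of them above 0.1. Those of different-numbered arrays correlated from -0.27 to 0.26 over 18 pairs, 6 of them above 0.1. Deviations from means of 3 arrays depend on each other, so these values cannot show that no pairing exists. Alternatives were no filter, a 50th percentile filter, quantile normalization, median centring, the mean of probe sets, array weights, an intensity trend with the robust option, only the groups compared, the replicate block, age as a covariate in tumours, leaving out each array, and a minimum log2 change of 1.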

Additional observations from a re-analysis of the deposited data

Results flagged for a closer look

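Bmpr1b, a type I BMP receptor, had deposited log2 values that differed by 1.93 between metastatic and non-metastatic tumours, with the metastatic tumours higher. All 3 metastatic tumours lay above every normal gland and all 3 non-metastatic tumours below every normal gland. The non-metastatic tumours and 2 of the 3 glands lay below the arrays' 30th percentile, so their order is one of values near background and the size is not a measured fold. The gene met the filter on low values through its metastatic arrays. The difference had an unadjusted p of 0.00113 and a limma adjusted p of 0.849, between 0.18 and 1 over the alternatives. Neither tumour group was called against normal gland, with adjusted p of 0.088 in metastatic and 0.21 in non-metastatic tumours.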

How the results depend on the processing

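Of the 46 members, 13 were called in tumours against normal gland, and 26 with array weights and 7 with a minimum log2 change of 1; leaving out 1 array gave 5 to 16, with 5 without normal gland 1 and 7 without normal gland 2. For non-metastatic tumours against normal gland 10 were called, 18 with array weights, and 5 to 13 with 1 array left out, the lowest without normal gland 1, followed by 6 without non-metastatic tumour 2. For metastatic tumours against normal gland 7 were called, 11 with only the groups compared, 26 with array weights, and 3 to 12 with 1 array left out: 3 without metastatic tumour 1, 4 without metastatic tumour 3, normal gland 1 or normal gland 2, and 12 without normal gland 3. Between the tumour groups 0 were called in every setting run. The weights gave normal gland 1 a weight of 7.5 and the other arrays 0.443 to 1.79. With the replicate block 9, 8, 6 and 0 members were called in the 4 comparisons. The highest correlation of same-numbered arrays, 0.17, was below that of different-numbered arrays, 0.26. Median centring also gave 13 calls, 9 higher and 4 lower, against 6 higher and 7 lower without it, so the members called were not the same. It moved the median change of all genes to 0.12, against 0.04. For members called in a comparison, and the 5 named between the tumour groups, no change reversed under any alternative run. Counted per member, comparison and alternative, 510 kept their side of the threshold and 108 lost it. The 510 include differences between the tumour groups, which were never called. Changes that were not called could reverse, as for Bmp4 in metastatic tumours against normal gland, -0.36, and 0.06 without normal gland 2. With each array left out in turn, 5 of 13, 5 of 10 and 2 of 7 calls held. Over all genes the 3980 calls in tumours against normal gland became 7603 with array weights, 1202 with the minimum change, 1991 without normal gland 1 and 1898 without normal gland 2. The 3288 calls for non-metastatic tumours became 1533 with only the groups compared, 5360 with array weights, 1215 with the minimum change, and 1345, 1517 and 1524 without normal gland 1, normal gland 2 and non-metastatic tumour 2. The 2332 calls for metastatic tumours became 6498 with array weights, 1299 with the block, 966 with the minimum change, 793 and 861 without normal glands 1 and 2, and 627, 1070 and 639 without metastatic tumours 1, 2 and 3. The 1 gene called between the tumour groups became 0 with only the groups compared or age as a covariate, and 40 without non-metastatic tumour 3. The cause of these shifts was not tested. Signal near background limits Bmp5 and Bmpr1b, and low tumour levels limit the folds of Chrdl1 and Bmp3. Low gland levels limit the size of the rise of Inhba.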
